A study of Mus musculus with 12 samples.

Results

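Integrins are the receptors that couple a macrophage to its matrix, and 10 of their subunit genes were followed here across soft, IL-4 and stiff hydrogels. They were taken by symbol from the 14098 genes of the deposited expression table: the α subunits Itga4, Itga5, Itga6, Itgav, Itgam and Itgax and the β subunits Itgb1, Itgb2, Itgb3 and Itgb5. All 10 reached at least 1 TPM in at least 2 libraries, a filter that 11194 of the 14098 genes passed. TPM divides reads by transcript length and scales each library to the same total, so that levels of different subunits can be set side by side.

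The cells were bone marrow-derived macrophages (BMDM) of male and female C57Bl/6 mice, 8 to 10 weeks old, grown with L929 conditioned medium and then embedded in a gel of collagen and hyaluronic acid. The 6 groups were WT cells and Camkk2-/- cells (here KO), each kept in the soft gel, in the soft gel with IL-4 (the labels give no dose), or in the stiff gel. Stiffening was triggered by ultraviolet crosslinking 24 h after encapsulation, the culture went on for 48 h, and collagenase IV freed the cells over 1 h. By the published methods, the stiff gel held more collagen than the soft gel. Only the stiff gel received a photoinitiator and ultraviolet light. The paper reports controls, by flow cytometry, in which neither higher collagen nor ultraviolet light changed macrophage phenotype. In these libraries, stiffness cannot be told apart from those differences. Each group had 2 libraries, named biological replicates in the labels, which do not say whether they came from separate mice, so that the p-values below measure only the spread between these libraries. Camkk2 encodes a kinase activated by calcium and calmodulin, and the question was how the stiff gel and IL-4 move the subunits with and without it.

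Each integrin is a pair of 1 α and 1 β chain that spans the membrane, binds matrix or a counter-receptor outside and is held to actin inside by talin and kindlin. Itgb2 is the leukocyte β chain, which pairs with Itgam (CD11b, complement receptor), Itgax (CD11c) or Itgal (CD11a). Itgb1 pairs with many α chains, among them Itga4 (fibronectin and VCAM), Itga5 (fibronectin) and Itga6 (laminin), while Itgav joins Itgb3 or Itgb5 into receptors for vitronectin and other proteins with an RGD motif. IL-4 acts on macrophages through STAT6.

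The targeted gene went against the label in 3 libraries. Camkk2 stood at 44.2 and 11.7 TPM in WT soft, 30.5 and 29.8 in WT soft+IL-4, 23.3 and 23.7 in WT stiff, 46.6 and 11.5 in KO soft, 11.5 and 8.54 in KO soft+IL-4, and 37.7 and 10.0 in KO stiff (replicates 1 and 2). The libraries labelled WT soft 2, KO soft 1 and KO stiff 1 thus carry the Camkk2 level of the other genotype, so each direction between genotypes below is between labels. WT stiff 1 stood apart from all 11 other libraries, with a root mean square log2 difference of at least 0.688 to each and of 0.691 to its partner, whereas WT stiff 2 lay at 0.188 from WT soft+IL-4 2. That was the smallest distance between any pair of libraries, below the 0.336 between WT soft+IL-4 2 and its own partner. Whether either library labelled WT stiff carries the right label was not tested, so every WT stiff value below, and its likeness to IL-4, is that of the libraries so labelled. Replicates 1 had 10.7 to 13.4% of genes at 0 and replicates 2 had 5.90 to 7.54%. All 8 macrophage markers were present, at a summed 45785 to 57729 TPM in the soft and KO stiff libraries and 23469 to 25447 TPM in the IL-4 and WT stiff libraries. The part of this shift in the subunit values was not tested. The defining markers of fibroblasts and of T and NK cells summed to under 1 TPM in every library. Only 4 of the 5 listed for fibroblasts and 2 of the 6 for T and NK cells were among the deposited genes. Summed neutrophil markers reached 97.7 TPM in WT stiff 1 and 38.6 to 63.4 TPM elsewhere. Most of the sum in WT stiff 1 was Mmp8, at 71.1 TPM against 27.9 to 41.9 TPM elsewhere. S100a8, at 12.7 TPM, lay within the range of the other libraries (6.51 to 19.9 TPM), and S100a9 was highest there at 9.71 TPM. In such bulk RNA, fewer cells of a type and less RNA per cell cannot be told apart.

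On the TPM scale, the soft gel had a clear order of subunit levels. Itgb2 led with 911 ± 9.04 TPM in WT soft and 904 ± 13.9 TPM in KO soft (mean ± SD, n = 2), followed by Itgam with 377 ± 48.8 and 385 ± 41.3 TPM. Itgb5, Itgb1 and Itgax came next, and the libraries of Itgb5 and Itgb1 overlapped in both genotypes. Itga5 stood at 43.9 ± 0.130 and 46.1 ± 0.0535 TPM. Itga4, Itga6 and Itgav, between 19.1 and 30.6 TPM, overlapped with their neighbours in the order, and Itgb3 was last at 1.69 ± 0.379 and 1.26 ± 0.169 TPM. With IL-4, Itgax moved to the second place of the order in both genotypes.

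**Figure D1:**
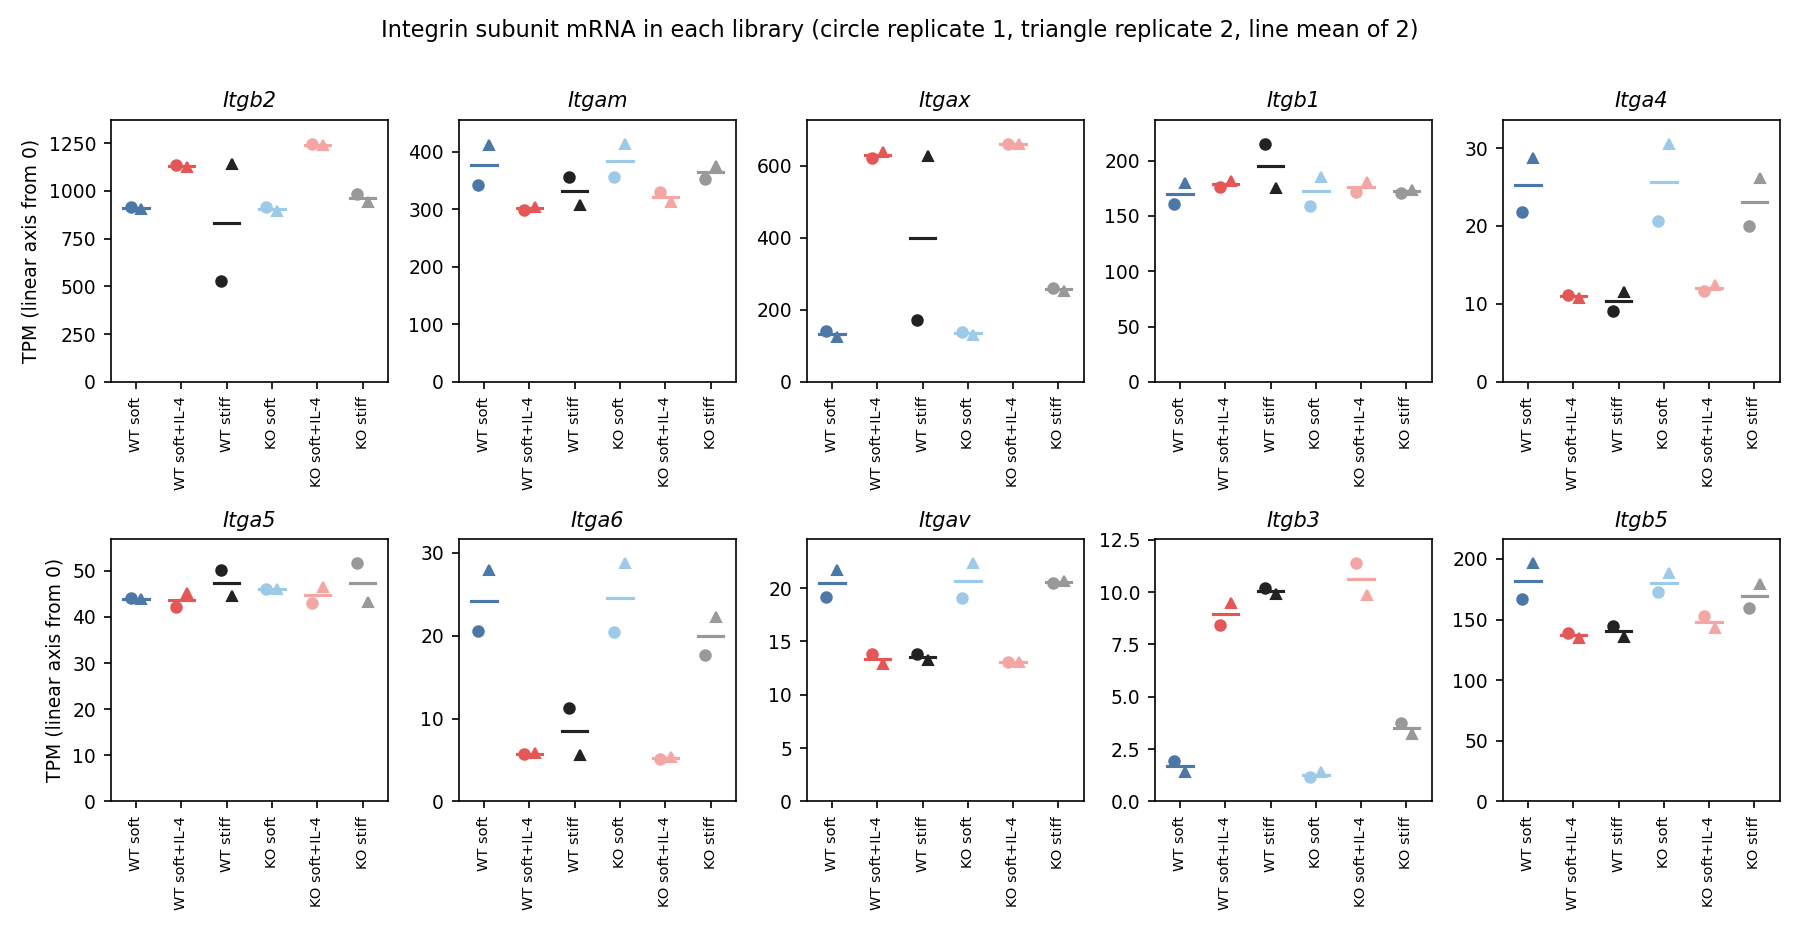
TPM of the 10 integrin subunits (linear axis from 0) in the 6 groups, with a circle for replicate 1, a triangle for replicate 2 and a line for the mean. All subunits but Itga5 and Itgb1 separate the 4 IL-4 libraries from the 4 soft libraries, as 36.9% of all genes do. The WT stiff pair splits for Itgb2 (527 and 1140 TPM) and Itgax (171 and 627 TPM).

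IL-4 raised the transcripts of Itgax and Itgb3 and lowered those of Itga4, Itga6 and Itgav in both genotypes, and lowered Itgb5 in WT cells. In WT, 6 of the 10 subunits passed the test (2 higher, 4 lower; limma on log2(TPM + 1), Benjamini-Hochberg adjusted p under 0.05), where 10.7% of all genes tested did (4.61% higher, 6.09% lower). In KO, 5 passed (2 higher, 3 lower), against 10.3% of all genes (4.33% higher, 5.95% lower). The median log2 fold change of the 10 was -0.16 in WT and -0.15 in KO, and that of all genes was -0.05 in each. The counts under other fits, here and below, have no share of all genes in the same fit beside them. They describe the listed genes alone. Without WT stiff 1, which enters these comparisons only through the shared estimate of the spread, the counts were 8 and 6. Without the 3 libraries whose Camkk2 goes against the label they were 1 (Itgb3) and 3 (Itga4, Itga6 and Itgb3). Each count fell to 2 (Itga6 and Itgb3) when soft replicate 2 or either IL-4 library of that genotype was left out. With 4 IL-4 and 4 soft libraries of both genotypes pooled, 8 subunits did not overlap, where 36.9% of all genes did not, each at the smallest p that an exact permutation test of 4 against 4 allows (0.0286, two-sided, unadjusted, 20 such tests). The 2 that overlapped were Itga5 and Itgb1.

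Itgax, the α chain of CD11c/CD18, gained the most TPM of the 10 with IL-4. It measured 141 and 125 TPM in WT soft, 622 and 639.5 TPM in WT soft+IL-4, 139 and 131 TPM in KO soft, and 662 and 661 TPM in KO soft+IL-4. Every IL-4 library was above every soft library. The log2 fold change was 2.24 (SE 0.44, adjusted p = 0.0118) in WT and 2.29 (SE 0.44, adjusted p = 0.0110) in KO by limma. Within replicate numbers 1 and 2 it was 2.13 and 2.35 in WT and 2.25 and 2.32 in KO. The titles of both IL-4 libraries of each genotype name Soft 1, so equal numbers need not mean paired samples. The call was lost when any of the 4 libraries compared was left out. Without the 3 libraries discordant for Camkk2, the fold changes were 2.15 and 2.32 with adjusted p = 0.233 and 0.193. Summed dendritic cell markers, of which Itgax was not counted as one, were 8.58 to 14.1 TPM in the soft libraries, between 14.4 and 16.8 TPM in the IL-4 libraries, 11.8 and 14.5 TPM in KO stiff, 17.1 TPM in WT stiff 2 and highest, at 24.2 TPM, in WT stiff 1, where Itgax was near its soft level. Much of the shift was Ccr7, at 2.24 to 5.46 TPM in soft gel, 6.24 to 9.69 TPM in the IL-4 libraries and 19.1 TPM in WT stiff 1. The part of these markers in the Itgax values was not tested.

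The 250 bases before the annotated start of Itgax hold a match to TTC, 4 further bases and GAA, the spaced palindrome that STAT6 prefers. The stretches before the starts of the 3 subunits that passed with IL-4 in both genotypes and are in the RefSeq promoter table (GRCm38.p6) are shown so that the match can be seen in place. They lie at chr7:128129300-128129549 (Itgax), chr2:79255176-79255425 (Itga4) and chr2:83724147-83724396 (Itgav), all on the plus strand, and capitals mark the match.
Itgax: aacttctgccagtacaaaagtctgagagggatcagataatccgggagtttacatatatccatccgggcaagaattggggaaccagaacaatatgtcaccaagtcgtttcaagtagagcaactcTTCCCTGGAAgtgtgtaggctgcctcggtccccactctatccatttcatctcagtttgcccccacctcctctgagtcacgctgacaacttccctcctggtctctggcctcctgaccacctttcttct
Itga4: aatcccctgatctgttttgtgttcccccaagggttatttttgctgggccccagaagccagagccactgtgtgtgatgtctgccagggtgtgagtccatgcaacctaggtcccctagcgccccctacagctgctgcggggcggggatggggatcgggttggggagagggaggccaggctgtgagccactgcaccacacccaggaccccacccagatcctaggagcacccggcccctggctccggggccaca
Itgav: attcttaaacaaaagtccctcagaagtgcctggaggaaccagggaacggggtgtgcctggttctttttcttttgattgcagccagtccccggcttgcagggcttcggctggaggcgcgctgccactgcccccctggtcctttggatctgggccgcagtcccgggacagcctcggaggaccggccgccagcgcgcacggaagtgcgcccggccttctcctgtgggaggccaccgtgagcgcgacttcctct
The match in Itgax, TTCCCTGGAA, begins 127 bases before the start. Such a match was present in 5.85% of the 32851 stretches of that length in the table, and the same palindrome with 3 bases between TTC and GAA, preferred by other STAT factors and absent from these 3, in 7.02%. Both patterns read the same on either strand. A match describes the sequence only and is not a measured binding site.

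Itgam lies 11055 bases before Itgax on the same strand (Itgam chr7:128062640-128118491, Itgax chr7:128129547-128150657, mm10 with GENCODE M21), and its fold changes with IL-4 had the opposite sign. Its levels were 343 and 412 TPM in WT soft, 299 and 304 TPM in WT soft+IL-4, 355 and 414 TPM in KO soft, and 330 and 313 TPM in KO soft+IL-4. The IL-4 libraries were the lower ones in each genotype. The log2 fold changes of -0.32 (SE 0.12, adjusted p = 0.129) in WT and -0.25 (SE 0.12, adjusted p = 0.230) in KO did not pass. Their mean over both genotypes did, at -0.29 (SE 0.08, limma adjusted p = 0.0366), but not without WT soft 2, KO soft 2, any 1 of the IL-4 libraries or the 3 discordant libraries (adjusted p from 0.0837 to 0.161). In that mean comparison, 7 of the 10 passed, against 22.9% of all genes (9.84% higher, 13.1% lower).

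Itgb2, the β chain that both need to reach the surface, measured 918 and 905 TPM in WT soft, 1137 and 1126 TPM in WT soft+IL-4, 914 and 894 TPM in KO soft, and 1247 and 1239 TPM in KO soft+IL-4. The groups did not overlap in either genotype, as was so for 61.3% of all genes in WT and 60.4% in KO. The fit over all 12 libraries gave 0.31 (SE 0.27, adjusted p = 0.526) in WT and 0.46 (SE 0.27, adjusted p = 0.343) in KO on the log2 scale, its SE being set in part by the split WT stiff pair. Without WT stiff 1 the fold changes were the same, the SE was 0.05 and limma's adjusted p was 0.00165 and 0.000185.

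Set against its partners, Itgb2 transcript was in smaller excess with IL-4. The ratio of Itgb2 TPM to the summed TPM of Itgam, Itgax, Itgal and Itgad was 1.56 to 1.80 in the 4 soft libraries and 1.18 to 1.26 in the 4 IL-4 libraries. Itgax made up 22.2 to 27.6% of that partner sum in soft gel and 66.2 to 67.3% with IL-4, and the Itgax to Itgam ratio went from between 0.303 and 0.412 to between 2.01 and 2.11. Itgal, the α chain of LFA-1 and the only other tested partner, was 24.6 to 27.4 TPM in soft gel and 7.24 to 8.46 TPM with IL-4 (log2 fold change -1.65 in WT, adjusted p = 0.0175, and -1.59 in KO, adjusted p = 0.0208, limma). In both genotypes this call was lost without any 1 of the 4 libraries compared (adjusted p of Itgal from 0.0777 to 0.138) or without the 3 discordant libraries (0.237 and 0.241). These ratios are of transcripts and do not measure surface heterodimers.

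**Figure D2:**
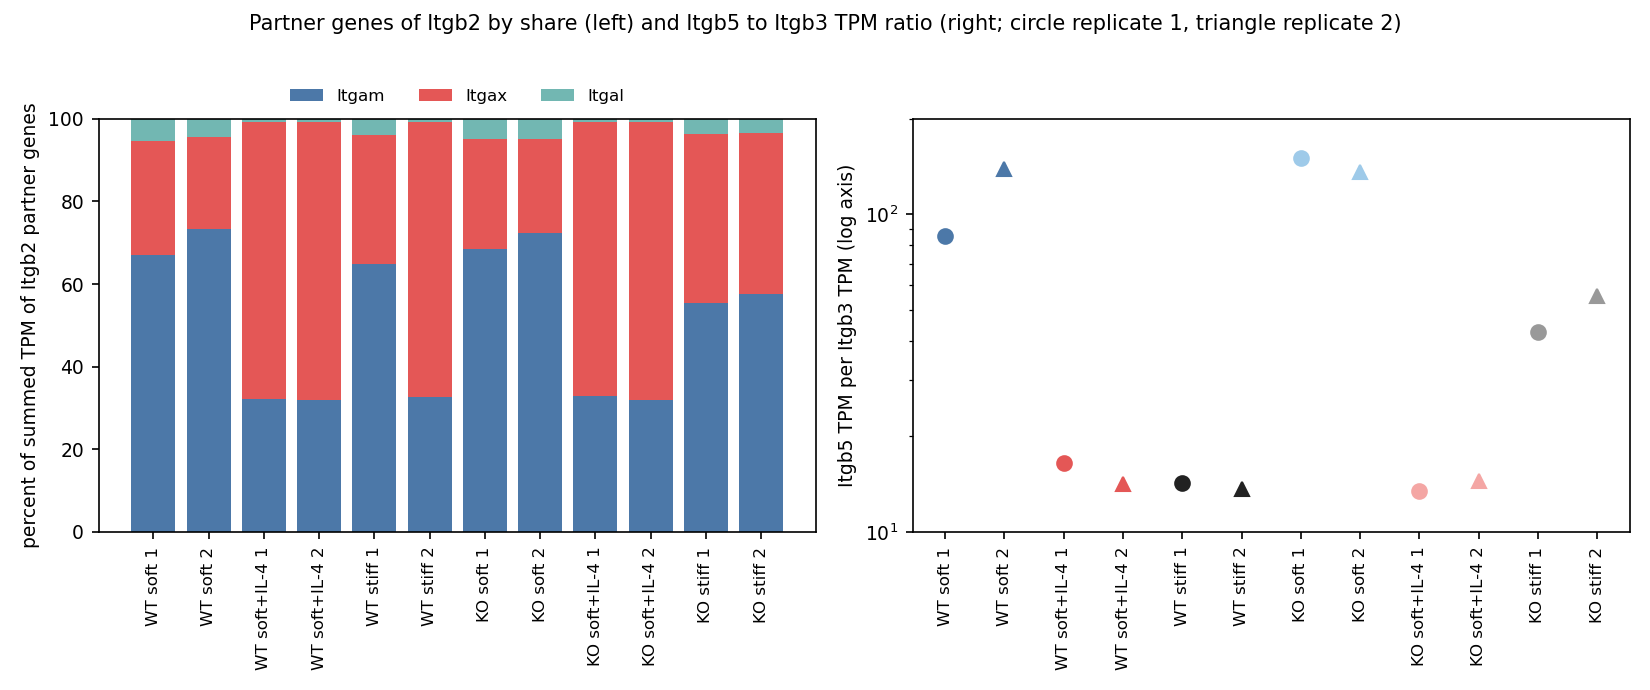
Left, share of Itgam, Itgax and Itgal in the summed TPM of the Itgb2 partner genes for each library (stacked bars from 0 to 100%). Right, Itgb5 TPM per Itgb3 TPM for each library on a log axis. Itgax holds 66.2 to 67.3% with IL-4 and 66.5% in WT stiff 2 but 31.1% in WT stiff 1, whereas the ratio on the right is alike in both WT stiff libraries (14.2 and 13.7).

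Itgb3, the β chain of the vitronectin receptor αvβ3, was the least abundant subunit in soft gel and rose with IL-4 in both genotypes. It measured 1.95 and 1.42 TPM in WT soft, 8.42 and 9.48 TPM in WT soft+IL-4, 1.14 and 1.38 TPM in KO soft, and 11.4 and 9.88 TPM in KO soft+IL-4. The lowest IL-4 library was far above the highest soft library. The log2 fold change of TPM + 1, a scale that understates the change at such low levels, was 1.89 (SE 0.16, adjusted p = 0.000159) in WT and 2.36 (SE 0.16, adjusted p = 6.68e-05) in KO by limma. Itgb3 passed in each of 10 alternative fits without a fold limit in both genotypes. Itga6 was the only other subunit to do so, and in KO alone. At a fold limit of 2 in log2, Itgb3 passed in KO and not in WT.

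Its partner Itgav went down while Itgb3 went up. Itgav measured 19.2 and 21.7 TPM in WT soft, 13.8 and 12.9 TPM in WT soft+IL-4, 19.1 and 22.3 TPM in KO soft, and 13.04 and 13.03 TPM in KO soft+IL-4. The log2 fold change was -0.58 (SE 0.11, adjusted p = 0.0118) in WT and -0.62 (SE 0.11, adjusted p = 0.00829) in KO by limma. The alternative β partner Itgb5 was at 167 and 196 TPM in WT soft, 139 and 134 TPM in WT soft+IL-4, 173 and 188 TPM in KO soft, and 153 and 143 TPM in KO soft+IL-4. Its fold change passed in WT (-0.40, SE 0.11, adjusted p = 0.0403) and was -0.28 in KO (SE 0.11, adjusted p = 0.129, limma). Itgb5 transcript stayed above Itgb3 throughout, by 85.4 to 151 times in soft gel and by 13.4 to 16.5 times with IL-4.

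Of the α chains that pair with Itgb1, Itga6 and Itga4 fell with IL-4, and Itga5 did not pass. Itga6, the laminin receptor chain, measured 20.5 and 27.9 TPM in WT soft, 5.75 and 5.81 TPM in WT soft+IL-4, 20.5 and 28.7 TPM in KO soft, and 5.14 and 5.38 TPM in KO soft+IL-4. On the log2 scale limma gave -1.88 (SE 0.28, adjusted p = 0.00337) in WT and -2.01 (SE 0.28, adjusted p = 0.00223) in KO. The highest IL-4 value of Itga6 was far below its lowest soft value. Itga4, the chain of VLA-4, measured 21.7 and 28.7 TPM in WT soft, 11.2 and 10.8 TPM in WT soft+IL-4, 20.6 and 30.6 TPM in KO soft, and 11.7 and 12.5 TPM in KO soft+IL-4. On the same scale it gave -1.12 for Itga4 (SE 0.21, adjusted p = 0.01004) in WT and -0.997 (SE 0.21, adjusted p = 0.0170) in KO. Itga4, Itga6 and Itgav all lie on the plus strand of chromosome 2 in mm10 (Itga6 chr2:71745616-71858416, Itga4 chr2:79255426-79333123, Itgav chr2:83724397-83806916). Itga4 overlaps Cerkl on the opposite strand, and Cerkl was listed at 0.471 to 1.48 TPM.

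Itga5, the fibronectin receptor chain, stayed between 42.2 and 51.6 TPM in all 12 libraries. Its log2 fold change with IL-4 was -0.01 in WT (95% confidence interval -0.25 to 0.23) and -0.04 in KO (-0.29 to 0.20), values so near 0 that scaling by the median of ratios turns their sign. Itgb1 ranged from 159 to 215 TPM, with IL-4 fold changes of 0.07 (-0.19 to 0.34) and 0.04 (-0.22 to 0.30) on the log2 scale. The summed α partners of Itgb1 (Itga1 to Itga10, without Itgav) were 88.0 to 108 TPM in soft gel and 60.8 to 65.7 TPM with IL-4. The share of Itga5 in that sum was 42.7 to 51.7% in soft gel and 69.4 to 71.6% with IL-4.

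**Figure D3:**
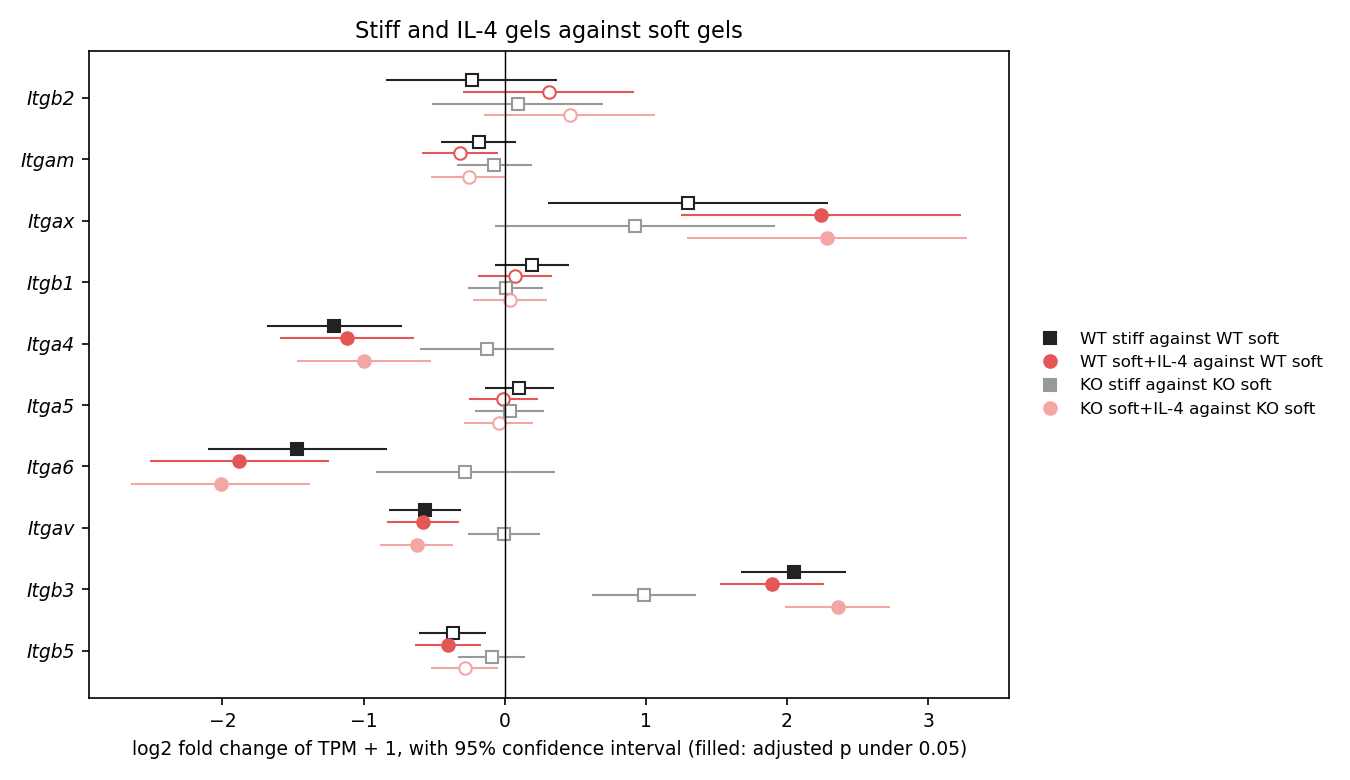
Log2 fold change of TPM + 1 with its 95% confidence interval for each subunit in the stiff and IL-4 gels against the soft gel of the same labelled genotype, with filled symbols for an adjusted p under 0.05 (limma). WT stiff and both IL-4 comparisons sit together for Itga4, Itga6, Itgav and Itgb3, while KO stiff lies near 0 for Itga4, Itgav, Itga5 and Itgb1 and at 0.99 for Itgb3.

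In the WT stiff gel, Itgb3 rose and Itga4, Itga6 and Itgav fell. These 4 of the 10 subunits passed (limma, adjusted p under 0.05), against 10.6% of all genes (4.29% higher, 6.31% lower). The median log2 fold change was -0.21, that of all genes being 0.02. The same 4 passed in both IL-4 comparisons, and the WT stiff and WT IL-4 comparisons share the WT soft libraries. The count was 7 without WT stiff 1 and 7 without WT stiff 2. It was 1 (Itgb3) without the library labelled WT soft 2, 1 (Itgb3) without the 3 libraries discordant for Camkk2, and 0 when only the 4 libraries compared were fitted.

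Itgb3 measured 10.2 and 9.92 TPM in WT stiff, above both WT soft values, and limma gave 2.05 on the log2 scale (SE 0.16, adjusted p = 9.94e-05). Within replicate numbers 1 and 2 the difference was 1.92 and 2.18. Itga4 measured 9.12 and 11.5 TPM in WT stiff (log2 fold change -1.21, SE 0.21, adjusted p = 0.00713). Itga6 measured 11.3 and 5.60 TPM (-1.47, SE 0.28, adjusted p = 0.0108), with within-number differences of -0.81 and -2.13. Itgav measured 13.8 and 13.2 TPM (-0.56, SE 0.11, adjusted p = 0.0137). All 8 of these stiff values were outside the WT soft range of their gene, in a comparison where 42.8% of all genes did not overlap.

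The leukocyte integrins Itgax and Itgb2 did not behave alike in the WT stiff pair. Itgax measured 171 TPM in WT stiff 1, near the soft gel, and 627 TPM in WT stiff 2, within the IL-4 range. Itgb2 measured 527 TPM in WT stiff 1, the lowest of the 12 libraries, and 1140 TPM in WT stiff 2. The log2 fold change over both was 1.30 for Itgax (SE 0.44, 95% confidence interval 0.30 to 2.29, limma adjusted p = 0.103) and -0.23 for Itgb2 (SE 0.27, -0.84 to 0.37, adjusted p = 0.664). With WT stiff 2 alone it was 2.23 for Itgax and 0.32 for Itgb2, and with WT stiff 1 alone 0.36 and -0.79. Such a fit takes the spread of the 1 WT stiff library left from the other groups, so no p-value is given. The direction of Itgb2 in the WT stiff gel therefore depends on which library is used. WT stiff 1 was also the library with the highest summed neutrophil markers, mostly through Mmp8, and the part of these markers in the Itgax and Itgb2 values was not tested.

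Itgb5 measured 145 and 136 TPM in WT stiff, below both WT soft libraries, and its log2 fold change of -0.37 (SE 0.11, 95% confidence interval -0.60 to -0.13) missed the threshold with a limma adjusted p of 0.0563. Itgam measured 355 and 308 TPM, with a log2 fold change of -0.18 (-0.45 to 0.08). Itgb1 measured 215 and 176 TPM (0.19, -0.07 to 0.46). Both overlapped with WT soft and had opposite signs in the 2 replicate numbers. Itga5, at 50.2 and 44.5 TPM (0.10, -0.14 to 0.35), lay above both WT soft libraries by 0.185 and 0.0209 on the log2 scale within the replicate numbers.

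In the KO stiff gel 0 subunits passed (limma), where 0.0447% of all genes did (5 of 11194, with 295 at an unadjusted p under 0.05). The 2 largest values belonged to subunits that also moved with IL-4. Itgb3 measured 3.74 and 3.24 TPM against 1.14 and 1.38 TPM in KO soft (log2 fold change 0.99, SE 0.16, 95% confidence interval 0.62 to 1.36, adjusted p = 0.162). Itgax measured 262 and 253 TPM against 139 and 131 TPM (0.93, SE 0.44, -0.07 to 1.92, adjusted p = 1). In both, the 2 stiff libraries lay above both soft ones and below both IL-4 ones, and 32.3% of all genes did not overlap between KO stiff and KO soft. Without WT stiff 1 in the shared spread these 2 passed (Itgb3 adjusted p = 0.0494, Itgax adjusted p = 0.000742, limma), and without the 3 discordant libraries neither did (adjusted p = 1 for each). Itga4 (20.0 and 26.2 TPM), Itga6 (17.7 and 22.2 TPM) and Itgav (20.5 and 20.7 TPM) lay within or next to the KO soft range. Their fold changes were -0.13 (-0.60 to 0.35), -0.28 (-0.91 to 0.36) and -0.00 (-0.26 to 0.25) on the log2 scale. Itgam, Itgb1, Itgb2, Itgb5 and Itga5 had fold changes from -0.09 to 0.09, each with an interval that held 0.

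Averaged over both genotypes, stiff against soft gave 3 passing subunits, against 6.47% of all genes (2.68% higher, 3.79% lower). They were Itgb3 (1.52, SE 0.12, adjusted p = 0.000123), Itga4 (-0.67, SE 0.15, adjusted p = 0.0309) and Itga6 (-0.87, SE 0.20, adjusted p = 0.0327, limma on the log2 scale). Over 4 stiff and 4 soft libraries only Itgax and Itgb3 did not overlap (exact permutation p = 0.0286, two-sided), that is 2 of the 10, where 8.84% of all genes did not overlap. The count of 3 was 1 (Itgb3) without WT soft 2, KO soft 2 or KO stiff 1, and 5 without either WT stiff library, with Itgax higher and Itgb2 higher or lower according to which was left out. The stiff values of Itgb3 spanned 3.24 to 10.2 TPM and those of Itgax 171 to 627 TPM, against 1.14 to 1.95 TPM and 125 to 141 TPM in the soft libraries.

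Between the labelled genotypes, subunits passed in the stiff gel and in no other gel. In KO stiff against WT stiff, Itga4 (1.09, SE 0.21, adjusted p = 0.0199), Itga6 (1.21, SE 0.28, adjusted p = 0.0418) and Itgav (0.57, SE 0.11, adjusted p = 0.0218) were higher and Itgb3 (-1.30, SE 0.16, adjusted p = 0.00243) was lower on the log2 scale by limma. These 4 of 10 compare with 4.93% of all genes (3.45% higher, 1.48% lower). The count was 1 (Itgb3) without either KO stiff library and 0 without the 3 discordant libraries or with only the 4 libraries compared. Without WT stiff 1, Itga4 was lost and Itgax and Itgb2 were lower in KO stiff, and without WT stiff 2 both were higher. With the replicate number as a block it was 3, Itga6 being lost. In soft gel 0 subunits passed (0% of all genes, 130 of them with an unadjusted p under 0.05), and with IL-4 again 0 (0% of all genes, 233 unadjusted, and 64 called by limma when only those 4 libraries were fitted). The log2 differences lay between -0.24 and 0.07 in soft gel and between -0.11 and 0.22 with IL-4. Their intervals were as wide as -0.97 to 1.02 for Itgax in soft gel and as narrow as -0.24 to 0.23 for Itgb5.

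Tested as an interaction, the genotype difference of the stiff response passed for 0 of the 10 subunits and for 0.974% of all genes. The nearest was Itgb3, whose response was 1.06 lower in KO on the log2 scale (difference -1.06, SE 0.23, 95% confidence interval -1.58 to -0.54, limma adjusted p = 0.0875). Itga4 followed with a difference of 1.08 (SE 0.30, adjusted p = 0.171) and Itgav with 0.56 (SE 0.16, adjusted p = 0.185). Without WT stiff 1, Itga6 and Itgax passed, and without WT stiff 2, Itga4, Itgax, Itgb2 and Itgb3 did. The difference for Itgax was -1.31 in the former and 0.57 in the latter, each resting on 1 WT stiff library. The difference of the IL-4 response passed for 0 of the 10 and for 0% of all genes (165 with an unadjusted p under 0.05), and the differences spanned -0.13 to 0.46.

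The stiff and IL-4 gels were also compared directly. WT stiff against WT soft+IL-4 gave 0 passing subunits (0% of all genes, 557 with an unadjusted p under 0.05), with log2 differences from -0.94 for Itgax (-1.94 to 0.05) to 0.41 for Itga6 (-0.22 to 1.04). Without WT stiff 2, Itga6 was higher and Itgax and Itgb2 were lower. KO stiff against KO soft+IL-4 gave 3, where 4.03% of all genes passed (2.66% higher, 1.37% lower). Itga6 (1.74, SE 0.28, adjusted p = 0.009997) and Itgav (0.62, SE 0.11, adjusted p = 0.0166) were higher and Itgb3 (-1.37, SE 0.16, adjusted p = 0.00214) was lower in the stiff gel (limma). The count was 6 without WT stiff 1, with Itga4 higher and Itgax and Itgb2 lower in addition, and 1 (Itgb3) without either KO soft+IL-4 library or KO stiff 2.

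Other integrin genes were few. Of 18 listed, 15 were in the table and 4 passed the filter. Itgal has been given above. Itgb7, the β chain of α4β7 and αEβ7, was 22.5 to 31.1 TPM in soft gel, between 12.9 and 17.7 TPM in the IL-4 libraries and 47.4 and 13.8 TPM in the split WT stiff pair. It passed in none of the 4 comparisons with soft gel. Itga1 and Itga9 stayed at or below 3.30 TPM, both highest in WT stiff 1. Itgb8, Itga10, Itga2b and the 8 others listed were at or below 1.14 TPM, and Itga2b, the platelet partner of Itgb3, at or below 0.673 TPM.

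Transcripts of the proteins that switch integrins on and tie them to actin passed in both directions. More of them were lower, as among all genes that passed (682 of 1198 lower with IL-4 in WT, 666 of 1151 in KO and 706 of 1186 in WT stiff). Of 50 tested genes of that list, 18 passed with IL-4 in WT (6 higher, 12 lower) and 22 in KO (8 higher, 14 lower), 17 in WT stiff (5 higher, 12 lower) and 0 in KO stiff. As shares these are 36%, 44%, 34% and 0%, to be read beside the 10.7%, 10.3%, 10.6% and 0.0447% of all genes given above. The median log2 fold change of the list was -0.11, -0.13, -0.24 and -0.04, and that of all genes -0.05, -0.05, 0.02 and -0.01. Without the 3 libraries discordant for Camkk2 the counts were 2, 3, 3 and 0. When only the 4 libraries compared were fitted they were 24, 23, 0 and 0. With single libraries left out they ranged from 7 to 27, 8 to 27, 8 to 26 and 0 to 0, the highest without a WT stiff library and the lowest without one of the soft or IL-4 libraries compared.

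Fyb, the adaptor ADAP that links T cell and myeloid receptors to integrin activation, stood at 169 to 187 TPM in the soft libraries and fell to between 59.3 and 62.9 TPM with IL-4 (log2 fold change -1.52 in WT and -1.55 in KO). In WT stiff it fell to 67.7 and 58.1 TPM (-1.49), and the KO stiff libraries held 145 and 149 TPM. Its stiff response differed between the labelled genotypes (interaction 1.21, SE 0.14, limma adjusted p = 0.0101), as did that of Ptk2b, the focal adhesion kinase relative Pyk2 (0.93, SE 0.11, adjusted p = 0.0101). Ptk2b was 95.1 to 104 TPM in soft gel, 47.4 to 50.5 TPM in the IL-4 libraries, 48.9 and 48.0 TPM in WT stiff and 89.9 and 88.6 TPM in KO stiff. These were the only 2 of the 50 with a called interaction, or 4%, where 0.974% of all genes had one. Neither passed without the 3 libraries discordant for Camkk2 (Fyb 1.11, Ptk2b 0.92, adjusted p = 0.636 for each) or with only the groups compared (adjusted p = 0.0849 for each). With single libraries left out, Fyb was lost without WT soft 2, KO soft 1 or KO stiff 2, and Ptk2b without WT soft 1, KO soft 1 or either KO stiff library (adjusted p up to 0.0639). The Src family kinases moved in both directions. Fgr fell with IL-4 (-1.73 in WT, -1.40 in KO) and in WT stiff (-1.31), and Fyn rose in all 3 (1.12, 1.39 and 1.34), as Src did (0.89, 0.84 and 0.75). Fyn measured 20.1 to 25.1 TPM in soft gel and 51.0 to 57.7 TPM with IL-4. Zyx, zyxin of focal adhesions, rose by 1.44, 1.36 and 0.93 on the log2 scale in the same 3 comparisons. Its WT stiff libraries were split, at 139 and 259 TPM. Dok2, an adaptor that dampens tyrosine kinase signals, rose by 0.95 in WT with IL-4. It was also higher, and passed, in KO with IL-4 and in WT stiff. Actn1, an actin crosslinker, rose by 0.92 in KO with IL-4. In WT it was 85.2 and 76.9 TPM in soft gel and 139 and 139 TPM with IL-4.

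Genes of integrin ligands and their processing enzymes also passed in both directions. Of 25 tested, 9 passed with IL-4 in WT (4 higher, 5 lower), 10 in KO (6 higher, 4 lower), 10 in WT stiff (5 higher, 5 lower) and 0 in KO stiff, or 36%, 40%, 40% and 0%. Of all genes, 10.7%, 10.3%, 10.6% and 0.0447% passed in these comparisons. The median log2 fold change of the list was -0.15, -0.12, 0.22 and 0.08, and that of all genes -0.05, -0.05, 0.02 and -0.01. Without the 3 discordant libraries the counts were 1, 4, 0 and 0, with only the libraries compared 14, 15, 0 and 0, and with single libraries left out 3 to 16, 3 to 15, 5 to 17 and 0 to 2, again highest without a WT stiff library.

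Fn1, fibronectin, the ligand of α5β1 and α4β1, was 10.1 to 12.6 TPM in the 4 soft libraries and 64.9 to 82.9 TPM with IL-4 (log2 fold change 2.73 in WT, adjusted p = 0.0117, and 2.46 in KO, adjusted p = 0.0190, limma). In WT stiff it was 349 and 73.3 TPM (3.73, adjusted p = 0.00249) and in KO stiff 28.3 and 21.9 TPM (1.07, adjusted p = 1). Lrrc32, which holds latent TGF-β for αv integrins, rose with IL-4 by 2.60 in WT and 2.55 in KO on the log2 scale, and Vwf by 1.25 and 1.08. Tgfbi fell by 1.10 and 1.07 and Col18a1, the source of endostatin, by 1.20 and 1.07. Icam1, the counter-receptor of the leukocyte integrins, fell by 0.98 in WT with IL-4. In KO it was 77.0 and 94.2 TPM in soft gel and 56.6 and 56.8 TPM with IL-4. Adam17, the sheddase, fell by 0.75 in KO with IL-4. It was also lower, and passed, in WT with IL-4 and in WT stiff.

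In WT stiff, Spp1 (osteopontin, a ligand of αvβ3) fell by 1.33, Col18a1 by 1.28 and Icam1 by 1.13 on the log2 scale. The WT stiff pair was split for Spp1 (777 and 1484 TPM) and Icam1 (32.4 and 50.6 TPM). Both values of each were below WT soft (2580 and 2831 TPM, 86.3 and 92.9 TPM). Cdh1 (E-cadherin) rose by 2.41 there and Pecam1 by 2.06. The rises of Cdh1 and Pecam1 rested mainly on WT stiff 1, where Cdh1 was 13.6 TPM against 1.42 TPM in its partner and Pecam1 11.6 against 3.27 TPM.

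**Figure D4:**
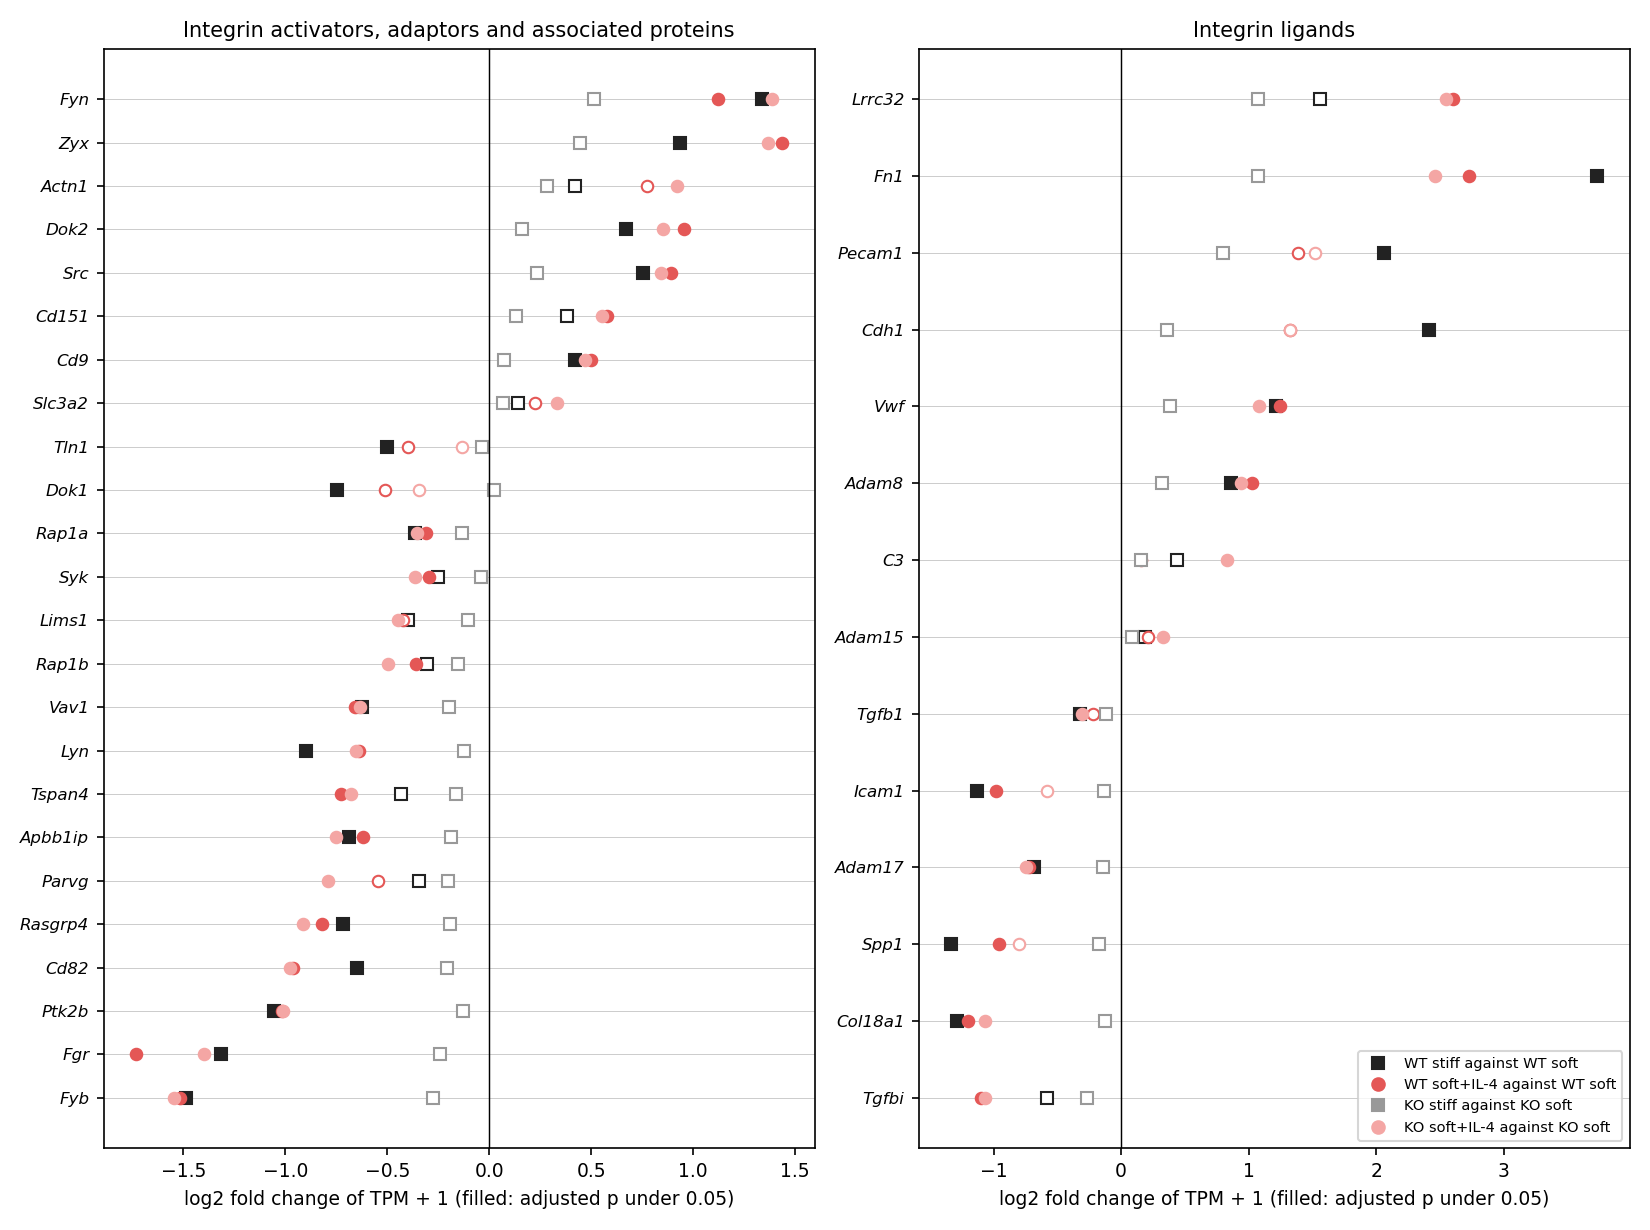
Log2 fold change of TPM + 1 for the integrin activators, adaptors and associated proteins (left) and the integrin ligands (right) that passed in at least 1 of the 4 comparisons with soft gel (1 gene of the left list is not shown), with filled symbols where the adjusted p was under 0.05 (limma). On the left, Fyb and Fgr lie lowest and Fyn and Zyx highest, and on both sides every KO stiff symbol is open.

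Genes whose pattern over the 12 libraries was most like a subunit are given as a description, since the points share libraries and treatments. For Itgb3 these were F10 (Pearson's r = 0.992 on log2(TPM + 1)), Scn3a (0.992) and Ddhd1 (0.991). Itgax was closest to Gpc1 (0.998), Lrrc32 (0.996) and Atp6v0a1 (0.995). Itga6 was closest to Gng2 (0.996), Maf (0.996) and Aatk (0.994), and Itga4 to Itm2b (0.995), Cyfip1 (0.990) and Ikbke (0.989). Itgav was closest to Tpcn1 (0.992), Il17ra (0.991) and Ms4a6b (0.991), and Itgb5 to Csf1r (0.981), Mmp14 (0.979) and Sepp1 (0.976). Among the 10 themselves, Itga4, Itga6 and Itgav were nearest to each other (0.962 for Itga4 and Itgav, 0.965 for Itga6 and Itgav), and the subunit nearest to Itgb3 was Itgax (0.851).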

How the data were processed

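RNA was read as strand-specific poly-A libraries, 12 in all. The authors deposited TPM values per gene. Their processing notes name Trim Galore 0.6.7, Salmon 1.4.0 and mm10, whereas the published methods describe gene counts, which were not used here. TPM keeps no sequencing depth, so the precision of low values is unknown. Genes that reached 1 TPM in 2 or more libraries were tested with limma 3.58.1 in R 4.3.3 on log2(TPM + 1), with 1 mean for each of the 6 groups, all 12 libraries sharing the spread, an intensity trend, and Benjamini-Hochberg adjustment over 11194 genes within each of 13 comparisons. A gene passed at an adjusted p under 0.05. The script was tested on simulated data. The members and lists were chosen with earlier results of these data known. From the adaptor and ligand lists, the 3 passing genes with the largest fold change in each direction were named per comparison (1 gene that this would name is not reported here, though the list counts include it), and any further one named was chosen after its values were seen. Alternatives were fold limits of 1 and 2, a pseudocount of 0.1, no filter, median-of-ratios scaling, only the groups compared, a replicate block, and leaving out single libraries or the 3 discordant for Camkk2. The fit without WT stiff 1 for comparisons that do not hold it was added after seeing the data. No column was left out.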

Additional observations from a re-analysis of the deposited data

How the results depend on the processing

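The number of subunits that passed depended on the fold limit and on which libraries were fitted. The share of all genes that passed under each setting is not given, so these counts describe the subunits alone. In WT stiff against soft it was 1 at a fold limit of 2, 0 with only the groups compared, 1 without the 3 libraries discordant for Camkk2, and 1 to 7 with single libraries left out. For IL-4 in WT it was 1 at a fold limit of 2 and 1 without the 3 libraries, and 2 to 8 with single libraries left out. For IL-4 in KO it was 3 at either fold limit and without the 3 libraries, and 2 to 6. In KO stiff against soft it was 0 to 2. For the stiff mean over both genotypes it was 1 at a fold limit of 1, 0 at 2, 1 with only the groups compared, 1 without the 3 libraries, and 1 to 5, and for the IL-4 mean 4, 2, 4 without the 3 libraries, and 6 to 8. The genotype difference of the stiff response gave 0 to 4. KO stiff against WT stiff gave 0 at a fold limit of 2, with only the groups compared and without the 3 libraries, and 1 to 6. WT stiff against WT soft+IL-4 gave 0 to 3. KO stiff against KO soft+IL-4 gave 0 at a fold limit of 2, 6 with only the groups compared, 0 without the 3 libraries, and 1 to 6. A library left alone in its group is assumed to vary like the others, and the cause of these shifts was not tested beyond there being fewer libraries.

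Itgb2 had opposite signs without WT stiff 1 and without WT stiff 2. This was so in WT stiff (0.32 and -0.79), the stiff mean (0.21 and -0.35), KO stiff against WT stiff (-0.24 and 0.87) and the stiff interaction (-0.23 and 0.88). Itgax did the same in the latter pair of comparisons (-1.28 and 0.59, -1.31 and 0.57). The other reversals, in the comparisons with soft gel within a genotype, were of fold changes that did not pass. Median-of-ratios scaling gave Itga5 0.0397 for IL-4 in WT and 0.0126 in KO, and Itgav 0.0135 in KO stiff. Without the 3 libraries, KO stiff gave -0.0906 for Itga5 and -0.0927 for Itgb1, and IL-4 in KO gave -0.0734 for Itgb1. With single libraries left out, IL-4 in WT gave -0.0565 to 0.0370 for Itga5 and -0.00472 to 0.154 for Itgb1, IL-4 in KO gave -0.0969 to 0.00974 for Itga5 and -0.0734 to 0.149 for Itgb1, and KO stiff gave -0.399 to 0.146 for Itga4, -0.0917 to 0.161 for Itga5, -0.184 to 0.0351 for Itgam, -0.112 to 0.106 for Itgav and -0.105 to 0.118 for Itgb1. Of 468 single-gene values under other settings, 402 kept direction and side of the threshold, as did 263 of 368 with a library left out.

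The replicate numbers were not taken to pair samples: deviations of same-numbered libraries correlated at -0.0526 to 0.314 over 15 pairs of groups. The 3 over 0.1 (0.283 to 0.314) were those among WT soft, KO soft and KO stiff, the groups in which Camkk2 was high in replicate 1 and low in replicate 2 whatever the label. With the replicate number as a block, 4, 6, 0 and 5 subunits passed in WT stiff, WT IL-4, KO stiff and KO IL-4, 3 and 7 in the means over genotypes, 3 in KO stiff against WT stiff and 4 in KO stiff against KO soft+IL-4. The cause of calls lost or gained was not tested. TPM keeps no depth, so low genes such as Itgb3 carry an unknown counting error.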
